A study of Canis lupus familiaris with 33 samples.

Results

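Relapsed canine diffuse large B-cell lymphoma (DLBCL) was compared with treatment naïve DLBCL on 23 of the 33 arrays of the series. The members were set by the sample labels, with earlier results of these data known. The labels give disease state DLBCL, with previous chemotherapy as Yes for 7 arrays (relapsed) and as No for 16 arrays (naïve). All samples were lymph node biopsies of pet dogs of mixed breeds, taken in naïve dogs at diagnosis and in relapsed dogs after chemotherapy. The remaining 10 arrays, from healthy nodes of 7 dogs euthanised for other conditions, are given only as a background level, with the arrays of a dog averaged first. Total RNA was amplified to cDNA, labelled with biotin and hybridised to the Affymetrix Canine Genome 2.0 array, and levels are log2 RMA values, so that a difference of 1 is a doubling. The depth of a library has no counterpart on an array, and the number of arrays limits the precision.

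Diffuse large B-cell lymphoma is an aggressive tumour of mature B cells that effaces the lymph node, and dogs develop it spontaneously. It is usually treated with CHOP, which joins cyclophosphamide (an alkylating agent), doxorubicin (a topoisomerase II poison), vincristine (a tubulin poison) and prednisone (a glucocorticoid). Most dogs respond and then relapse, often with a tumour that no longer answers the same drugs. Mechanisms described for such resistance include drug efflux pumps, altered drug targets, detoxifying enzymes and changed control of cell death. The comparison therefore asks whether the RNA of relapsed nodes differs from that of nodes never exposed to these drugs.

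The study describes the relapsed dogs as treated with standard CHOP, but the labels give several protocols. The labels of relapsed samples 3, 13 and 24 name CHOP and that of sample 18 CHOP followed by lomustine (CCNU), L-asparaginase and prednisone. Sample 9 had doxorubicin and prednisone followed by the same rescue drugs, sample 12 had doxorubicin, Cytoxan (cyclophosphamide) and prednisone, and the label of sample 4 gives only the letters GS. The time since the last treatment was 82 days in sample 3, 672 days in sample 4, 32 days in sample 9, 152 days in sample 12, 123 days in sample 13, 76 days in sample 18 and 13 days in sample 24. No relapsed label lists a steroid among the current medications. Relapsed dogs were 9.19 ± 1.93 years old and naïve dogs 7.96 ± 2.96 years (SD, n = 7 and 16), a difference of 1.23 years (exact permutation test, two-sided, p = 0.329). Relapsed samples came from 6 males and 1 female, and naïve samples from 8 males and 8 females. The RNA integrity number was 9.56 ± 0.33 in relapsed and 9.69 ± 0.28 in naïve samples (SD, n = 7 and 16, difference -0.14, exact permutation test, two-sided, p = 0.331).

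Several samples need naming before the results. Relapsed sample 12 and naïve sample 11 came from the same dog, so that the groups hold 7 and 16 dogs but 22 dogs in all. Relapsed samples 4, 18 and 24 share 1 date in the names of their array files, together with naïve samples 1, 22, 23 and 25. This day, read from a list whose text came from page images, is called array day 2 below, and array day 1 holds relapsed samples 3 and 9 and 6 naïve samples. Naïve sample 5 stood apart, with the highest score on the first principal component of the 23 arrays (115 against a range of -28.0 to 78.5 in the relapsed arrays) and a mean level of the B-cell list of 7.86, where the other naïve arrays had 9.52 or more. B-cell markers were otherwise high in both groups. MS4A1, which encodes CD20, lay between 12.88 and 13.86 in relapsed samples and between 8.51 and 13.78 in naïve samples, the lowest value being that of naïve sample 5. CD79A, a chain of the B-cell receptor, lay between 12.87 and 13.30 in relapsed and between 10.88 and 13.37 in naïve samples.

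No probeset differed between relapsed and naïve DLBCL after correction for multiple testing. Of 43035 probesets, 0 were higher and 0 lower in relapsed DLBCL at an adjusted p under 0.05 (limma, Benjamini-Hochberg, 0.0% of probesets), and the smallest adjusted p was 0.86. At an unadjusted p under 0.05, 945 probesets were higher and 1112 lower, 4.78% of all. The methods' one-way analysis of variance and an exact rank-sum test also gave 0 after adjustment, with 871 higher and 1191 lower and with 742 higher and 1204 lower before it. Each of the 25 other settings tried gave 0 probesets in either direction. Without relapsed samples 4, 18 and 24, 0 probesets passed, the smallest adjusted p was 1, and 440 were higher and 769 lower at an unadjusted p under 0.05 (2.81% of all). The split by direction moved with the centring of the arrays. Of the probesets at an unadjusted p under 0.05, 45.9% were higher in relapsed DLBCL with the deposited values and 35.4% when each array was centred on its median. That centring moved the median of all genes from -0.02 to -0.03.

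The effect sizes and their intervals say which differences these arrays could bound. For each of 15115 genes the brightest of its probesets was taken. The median size of the log2 difference was 0.08, and the 95% confidence interval of a gene extended a median of 0.25 to either side (0.15 at the 10th and 0.62 at the 90th percentile of genes). For 92.2% of genes the whole interval lay within 1 log2 unit of 0, and for 71.4% within 0.5. Both shares include genes read from dim probesets, whose differences RMA shrinks, and were not taken over brighter genes alone. The point estimate was above 1 for 81 genes (0.536% of genes) and below -1 for 8 genes (0.0529%), and without relapsed samples 4, 18 and 24 these counts were 49 and 20. Of the 81 genes, 29 were still above 1 without those samples, and of the 8 genes, 7 were still below -1. In 0 of 15115 genes (0.0%) were the groups without overlap. Relapsed tumours were about as variable as naïve ones, with a median SD of 0.25 in relapsed and 0.26 in naïve samples.

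The main axes of variation were compared as well, and none passed after correction. On the second principal component (10.2% of the variance) relapsed arrays scored 20.2 ± 23.6 and naïve arrays -8.85 ± 28.9 (SD, n = 7 and 16, exact permutation test, two-sided, p = 0.0294, adjusted over 5 components p = 0.147). Relapsed sample 18 had the highest score of all 23 arrays on this component, 72.7, and the other 6 relapsed arrays lay between 3.78 and 18.1. The other 4 of the first 5 components gave exact p values between 0.623 and 0.941.

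PPARA had the smallest p of any gene. It encodes a fatty acid sensing nuclear receptor that switches on lipid oxidation. Its level was 8.24, 8.94, 9.13, 7.81, 8.31, 7.64 and 8.56 in relapsed samples 3, 4, 9, 12, 13, 18 and 24, against a lowest level of 6.16, a median of 6.93 and a highest of 8.07 in naïve samples. Relapsed samples 3, 4, 9, 13 and 24 were thus above every naïve sample, and 12 and 18 were within the naïve range but above its median. The difference was 1.33 (95% interval 0.80 to 1.86), 2.52-fold, with p = 2.99e-05 before and 0.86 after adjustment over all probesets (limma), so that PPARA did not pass the test. Without samples 4, 18 and 24 the difference was 1.33. In the dog sampled in both states PPARA was 7.81 at relapse and 7.89 before treatment, and in healthy nodes it averaged 7.82. The mean of its probesets differed by 0.96.

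**Figure D1:**
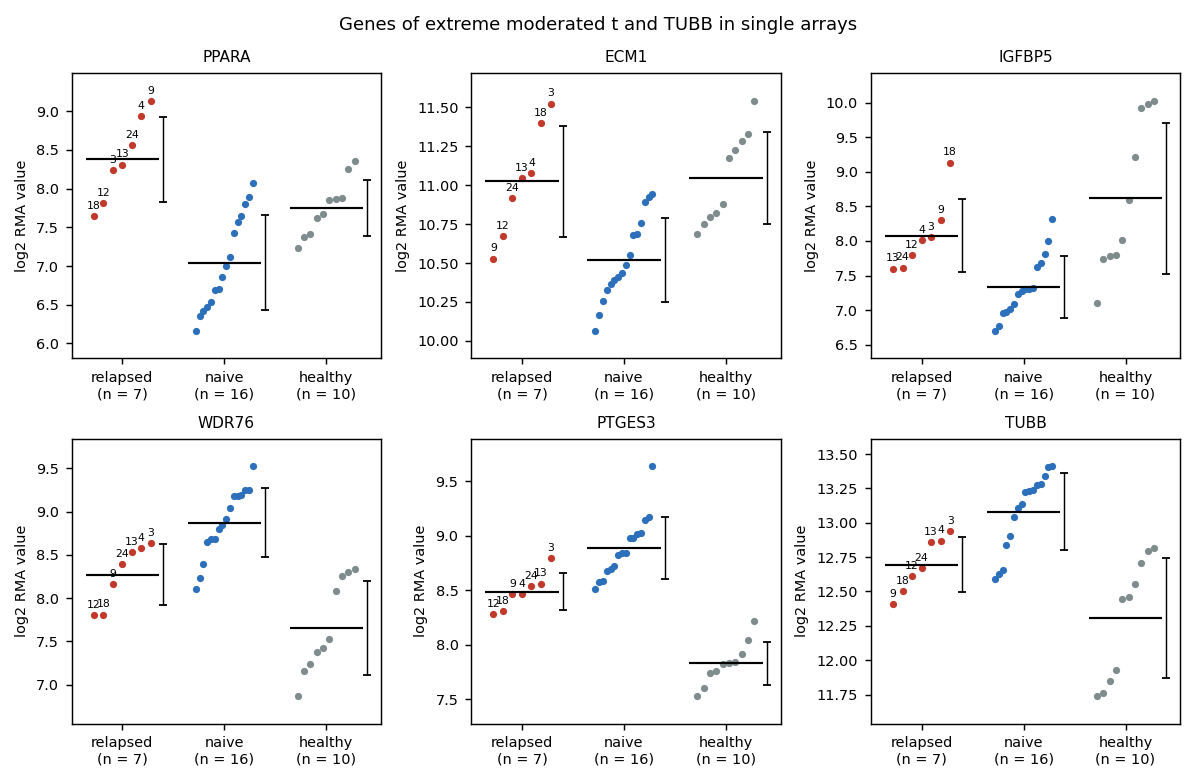
Log2 RMA values of PPARA, ECM1, IGFBP5, WDR76, PTGES3 and TUBB in every array (points) of relapsed DLBCL, naïve DLBCL and healthy nodes (10 arrays of 7 dogs), with the mean (line) and SD (bar) over arrays. Relapsed points carry their sample number. The groups overlap in every panel, and for PPARA 5 of the 7 relapsed points lie above the highest naïve value of 8.07.

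The other genes at the high end of the ranking had smaller differences, all with an adjusted p of 0.99. ECM1, a secreted glycoprotein of the extracellular matrix, lay between 10.53 and 11.52 in relapsed and between 10.06 and 10.94 in naïve samples (difference 0.50, 95% interval 0.23 to 0.78), with 4 of 7 relapsed samples above every naïve one. IGFBP5, which binds insulin-like growth factors, lay between 7.599 and 9.13 in relapsed and between 6.70 and 8.32 in naïve samples, and only sample 18 was above the naïve range (difference 0.74, interval 0.31 to 1.16). ENO3, the muscle form of the glycolytic enzyme enolase, was highest in sample 24 at 11.03, and samples 3, 4, 13 and 24 were above the naïve maximum of 9.68 (difference 0.57). NXPH2, CFAP206, MMP23, ART1, TRIP6, CUL7 and the unnamed loci LOC481834 and LOC100856727 completed the 12 genes, with differences of 0.29 (NXPH2) to 0.56 (LOC481834). LOC481834 and CFAP206 averaged 4.62 and 4.25 in relapsed samples, close to the array's non-canine tag probesets, whose means ran from 2.79 to 4.56. In 11 of these 12 genes all 7 relapsed samples lay above the naïve median, the exception being LOC481834 with 6. The genes were chosen by their t in these same samples, so that this follows largely from the choice.

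At the low end, WDR76 had the widest difference of the 12 genes. WDR76, a WD-repeat protein of the nucleus, lay between 7.80 and 8.63 in relapsed and between 8.11 and 9.52 in naïve samples (difference -0.60, interval -0.95 to -0.25), with samples 12 and 18 below every naïve one. PTGES3, the p23 co-chaperone of HSP90, which also attends the glucocorticoid receptor, lay between 8.28 and 8.80 in relapsed and between 8.51 and 9.64 in naïve samples (difference -0.40, interval -0.64 to -0.16). Samples 4, 9, 12 and 18 were below the whole naïve range. PHF5A, a subunit of the spliceosome, and MRPL41, a protein of the mitochondrial ribosome, had differences of -0.27 and -0.31. CCDC102B and LOC607906 had the smallest p values of the 12 (0.000293 and 0.000613), but averaged only 3.17 and 2.89 in relapsed samples, in the range of the tag probesets. SMPD4, CWF19L1, PEX2, SYNJ2BP, LOC490392 and LOC477441 made up the rest, with differences of -0.40 (SMPD4) to -0.25 (PEX2). In 11 of the 12 genes all 7 relapsed samples lay below the naïve median, which again follows largely from the choice by t.

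Groups of genes were described by the number of measured members, their median log2 difference and the median percentile of their moderated t among all 15115 genes, where 50% is the middle of the ranking. Over all 15115 genes the median difference was -0.02, with 6748 positive and 8367 negative. At an unadjusted p under 0.05, 366 genes were higher (2.42%) and 365 lower (2.41%). Members of a list often vary together, so that these counts describe the lists and are no test. In every list named below, 0 members passed the adjusted p of 0.05, with or without relapsed samples 4, 18 and 24.

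**Figure D2:**
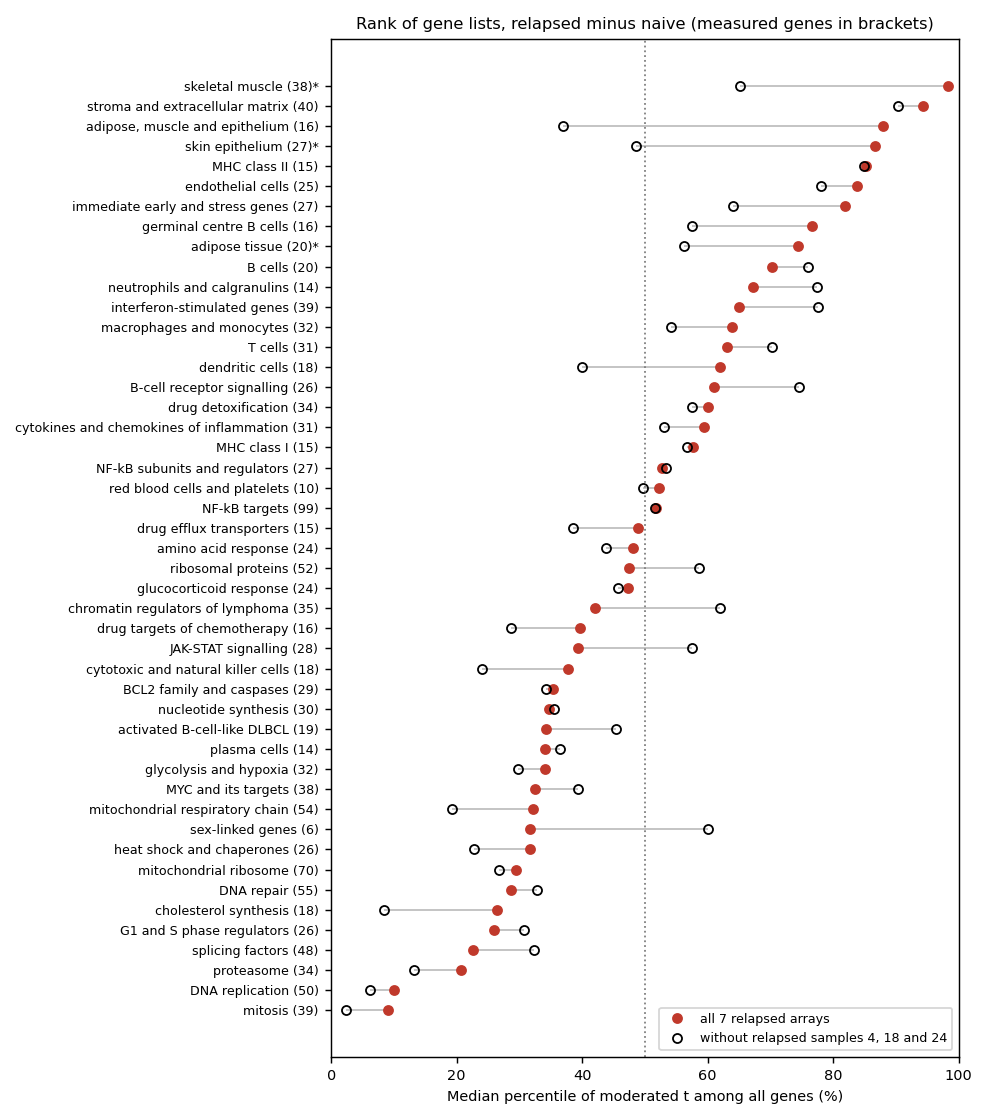
Median percentile (horizontal axis, %) of the moderated t of the gene lists shown among all genes, relapsed minus naïve, with all 7 relapsed arrays (filled) and without relapsed samples 4, 18 and 24 (open). Lists with an asterisk were chosen after the values were seen, and the others with earlier results of these data known. Mitosis and DNA replication lie at the low end in both, while the muscle list stood at 98.3% with all 7 and at 65.1% without those samples.

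Genes of cell division stood lowest in the ranking. Of 39 mitosis genes, 38 had a negative difference, and the list's median was -0.32 at the 9.07% percentile. At an unadjusted p under 0.05, 7 were lower and 0 higher. CENPA, the histone H3 variant of the centromere, was 9.26, 9.71, 7.27, 8.14, 8.04, 6.23 and 8.97 in relapsed samples 3, 4, 9, 12, 13, 18 and 24, against a lowest level of 8.36, a median of 8.86 and a highest of 9.80 in naïve samples. Samples 9, 12, 13 and 18 were below every naïve sample, while samples 3, 4 and 24 were above the naïve median. Its difference was -0.81 (interval -1.50 to -0.12, adjusted p = 0.99). ANLN, an actin binding protein of the cleavage furrow, had a difference of -0.74, PLK4, the kinase that starts centriole duplication, -0.62, and the chromosomal kinesin KIF4A -0.46.

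The mitosis list was uneven among the relapsed samples. Its mean level was 9.72, 10.26, 8.76, 9.03, 9.44, 8.61 and 9.74 in relapsed samples 3, 4, 9, 12, 13, 18 and 24, against a lowest of 9.10, a median of 9.65 and a highest of 10.32 in naïve samples. Samples 9, 12 and 18 were below every naïve array, and samples 3, 4 and 24 were above the naïve median. Healthy nodes averaged 8.42. Without samples 4, 18 and 24 the list's median was -0.47 at the 2.39% percentile, with 14 of 39 members lower at an unadjusted p under 0.05, where 248 of all 15115 genes were. Leaving out sample 18 alone brought the median to -0.19, and leaving out sample 4 alone to -0.52. By time since the last treatment, the sample with the longest interval (sample 4) had the highest level, but sample 24 with the shortest interval was also above the naïve median.

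DNA replication genes stood next to them. Of 50 measured genes, 46 had a negative difference, 14 were lower at an unadjusted p under 0.05 and 0 higher, and the median was -0.23 at the 10.1% percentile. MCM4, a subunit of the replicative helicase, lay between 10.40 and 11.56 in relapsed and between 11.08 and 11.98 in naïve samples, with a naïve median of 11.69 that no relapsed sample reached (difference -0.40, interval -0.66 to -0.14). RPA2, which coats unwound DNA, had a difference of -0.40, and CDC6 and CDC45, which load and start the helicase, -0.63 and -0.58. CDC45 was below the naïve minimum of 7.71 in samples 9, 12, 13 and 18. The list's mean was 9.97 ± 0.34 in relapsed and 10.18 ± 0.21 in naïve samples (SD, n = 7 and 16), and sample 4 at 10.45 was the only relapsed array above the naïve median. Without samples 4, 18 and 24 the median was -0.24 at the 6.14% percentile. Without sample 18 it was -0.11, the value nearest 0 of the 7 fits that each left out 1 relapsed sample.

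Regulators of entry into S phase leaned the same way. CDC25A, the phosphatase that activates CDK2, had a difference of -0.60 (interval -1.02 to -0.18), the transcription factor E2F1 -0.31 and the kinase CDK2 -0.31. Of 26 genes in that list, 20 were negative and 4 lower at an unadjusted p under 0.05. DNA repair genes had a median of -0.08 (55 genes, 28.7% percentile), with 3 lower, which were RAD54L (difference -0.40), CHEK1 (-0.46) and EXO1 (-0.58), all known from S phase or recombination. MYC itself averaged 11.06 in relapsed and 11.39 in naïve samples (difference -0.32, interval -0.98 to 0.33), and 1 of 7 relapsed samples was above the naïve median. The list of MYC and its targets had a median of -0.08 (38 genes, 32.5% percentile) with all samples, 0.0063 without sample 18 and -0.04 without samples 4, 18 and 24. In it, EIF5A, a translation factor, had a difference of -0.22. Ribosomal proteins had a median of -0.01 (52 genes, 47.4% percentile).

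Markers of tissue around and between the tumour cells stood at the other end. Of 40 genes of stroma and extracellular matrix, 39 had a positive difference, 9 were higher and 0 lower at an unadjusted p under 0.05, and the median was 0.45 at the 94.4% percentile. DCN, the collagen binding proteoglycan decorin, was 12.95, 12.39, 11.39, 10.997, 11.48, 13.53 and 11.22 in relapsed samples 3, 4, 9, 12, 13, 18 and 24, against a lowest level of 5.48, a median of 10.18 and a highest of 12.44 in naïve samples. All 7 relapsed samples were above the naïve median and samples 3 and 18 above the naïve maximum (difference 1.58, interval 0.17 to 2.99, adjusted p = 0.99). COL1A1 and COL1A2, the chains of type I collagen, had differences of 0.77 and 0.82, and FBLN1, the matrix protein fibulin-1, 1.53. The mean level of the list was 10.68, 10.54, 10.03, 10.05, 9.99, 10.90 and 9.72 in relapsed samples 3, 4, 9, 12, 13, 18 and 24, against 8.97 to 10.51 with a median of 9.78 in naïve samples, and healthy nodes averaged 10.14. Samples 3, 4 and 18 were above the naïve range. Without samples 4, 18 and 24 the median was 0.37 at the 90.3% percentile, with 0 members at an unadjusted p under 0.05. In bulk tissue, fewer cells of a type and less RNA of that type in each cell cannot be told apart.

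Skeletal muscle genes had some of the largest differences, and the mean level of their list was highest in samples 24 and 4. MYH2, a fast myosin heavy chain, had the largest difference of any gene, 2.56 (interval 0.76 to 4.37, adjusted p = 0.99), and was named after its value was seen. Its level was 3.56, 10.17, 3.21, 3.40, 3.39, 6.39 and 12.44 in relapsed samples 3, 4, 9, 12, 13, 18 and 24, against 3.22 to 3.93 in naïve samples. Samples 4, 18 and 24 were far above every naïve sample and the other 4 were within or just below the naïve range. MYH1, another fast myosin, behaved likewise, with 8.80, 6.01 and 10.64 in samples 4, 18 and 24, no more than 3.19 in the other relapsed samples and at most 3.60 in naïve samples. Without these 3 samples the difference was -0.13 for MYH2 and -0.12 for MYH1. A list of muscle genes chosen after the values were seen (38 genes) had a median of 0.70 with all samples and 0.03 without samples 4, 18 and 24. Its mean level was 10.45 in sample 24, 8.68 in sample 4, 7.49 in sample 18, 7.32 or less in the other relapsed samples and at most 7.27 in naïve samples. MYBPC1, a myosin binding protein with the second largest difference (2.40, interval 0.55 to 4.25), was named after its value was seen and had another pattern. Its level was 5.86, 8.96, 10.92, 5.07, 10.93, 6.35 and 12.77 in relapsed samples 3, 4, 9, 12, 13, 18 and 24, against 4.73 to 11.28 with a median of 5.82 in naïve samples. Samples 9 and 13 were high as well and only sample 24 was above the naïve range, and without samples 4, 18 and 24 its difference was 1.90 (interval -0.23 to 4.03).

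Skin and fat markers were raised in other combinations of the same samples. KRTDAP, a keratinocyte protein, was 13.24 in sample 4 and 10.57 in sample 18, at most 6.69 in the other relapsed samples and at most 6.88 in naïve samples. KRT1, a keratin of the upper epidermis, was 9.68 in sample 4 and 7.58 in sample 18, against a naïve maximum of 5.40 that sample 12 also passed. The fat hormone adiponectin (ADIPOQ) was 11.81 in sample 18 and between 6.74 and 8.26 in the other relapsed samples, while naïve samples reached 13.06. The adipose list (20 genes, chosen after the values were seen) had a mean level of 9.17 in sample 18 and 10.37 in naïve sample 22. The skin list (27 genes, chosen likewise) had a mean level of 7.504 in sample 4 and 6.73 in sample 18, at most 5.80 in the other relapsed samples and at most 5.94 in naïve samples. Without samples 4, 18 and 24 the skin list had a median of -0.01 and the adipose list 0.06. SFN and PERP, which keratinocytes express, were highest in sample 4, where SFN was 7.55 and PERP 9.44, against naïve maxima of 6.85 and 5.53. The part of muscle, skin and fat RNA in the other differences of these samples was not tested beyond the fits that leave the samples out.

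**Figure D3:**
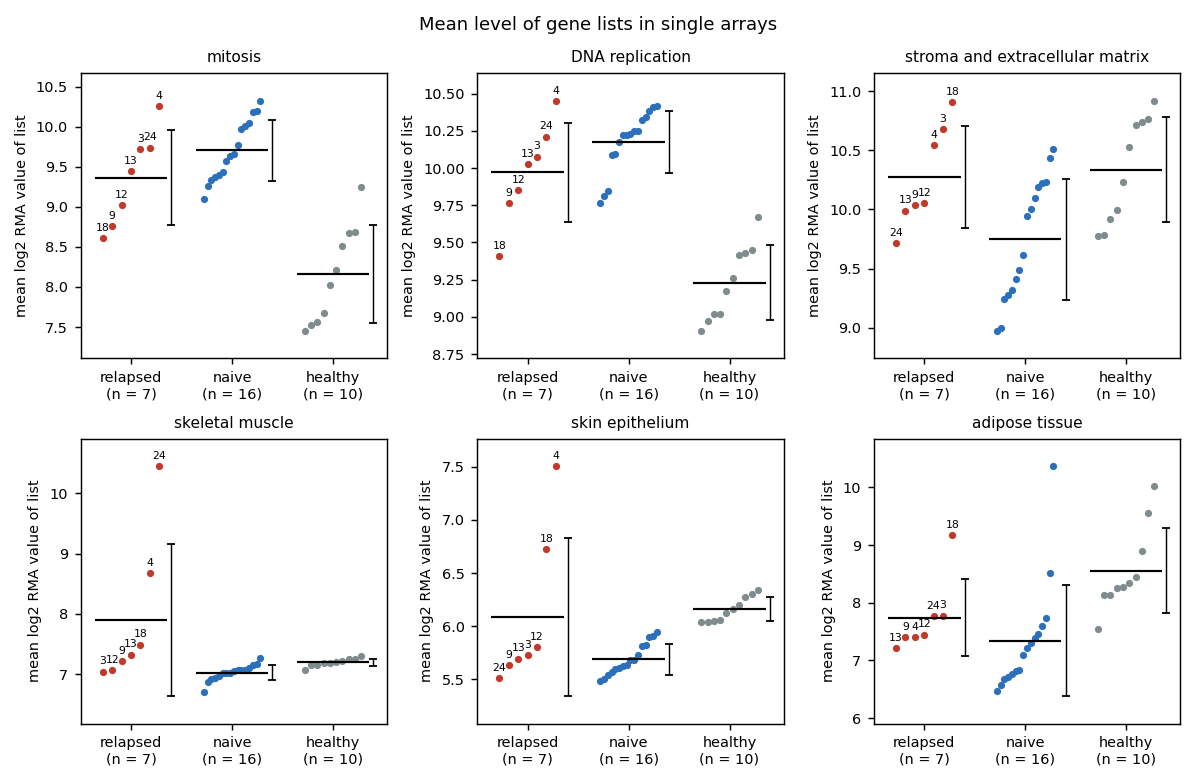
Mean log2 RMA value of 6 gene lists in every array (points) of relapsed DLBCL, naïve DLBCL and healthy nodes (10 arrays of 7 dogs), with the mean (line) and SD (bar) over arrays. Relapsed points carry their sample number. Muscle genes are raised in samples 24 and 4, skin genes in samples 4 and 18, while the mitosis and stroma lists overlap broadly between relapsed and naïve arrays.

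Drug transporters showed no shared direction. Of 15 efflux transporters measured, 6 were positive and 9 negative, 0 passed an unadjusted p of 0.05, and the median was -0.02 at the 48.8% percentile. ABCB1, the P-glycoprotein that exports doxorubicin and vincristine, was 7.15, 5.78, 7.03, 7.63, 6.45, 6.77 and 6.66 in relapsed samples 3, 4, 9, 12, 13, 18 and 24, against a lowest level of 5.07, a median of 6.40 and a highest of 7.82 in naïve samples. Samples 3, 9 and 12 were toward the upper end and all 7 were inside the naïve range. The difference was 0.31 with an interval of -0.38 to 1.001, so that a doubling lay at its edge, and healthy nodes averaged 9.64. In the dog sampled in both states ABCB1 was 7.63 at relapse and 6.54 before treatment. In this dog the T-cell list was also higher at relapse, by a median of 0.65 with 27 of 31 genes higher. Any relation of ABCB1 to the T-cell content of the nodes was not tested. ABCC1, another exporter of anthracyclines, averaged 10.80 in relapsed and 10.37 in naïve samples (difference 0.43, interval -0.21 to 1.08), and ABCG2 9.32 and 9.17 (difference 0.15, interval -0.80 to 1.11). ABCC5 was 8.75 in sample 18, against at most 6.92 in the other relapsed samples and 6.98 in naïve samples.

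Drug targets had a median of -0.06 at the 39.6% percentile (16 genes, 12 negative). TUBB, a beta-tubulin and so a target of vincristine, was 12.94, 12.87, 12.41, 12.61, 12.86, 12.50 and 12.67 in relapsed samples 3, 4, 9, 12, 13, 18 and 24, against 12.59 to 13.41 with a median of 13.18 in naïve samples. All 7 relapsed samples were below the naïve median and samples 9 and 18 below the naïve minimum (difference -0.39, interval -0.63 to -0.15, adjusted p = 0.99). RRM2 and RRM1, subunits of ribonucleotide reductase, had differences of -0.52 and -0.20, and STMN1, which destabilises microtubules, -0.16. TOP2A, the target of doxorubicin, averaged 12.63 in relapsed and 12.83 in naïve samples (difference -0.20, interval -0.62 to 0.21), with sample 4 above and samples 9 and 18 below the naïve range. The members lower at an unadjusted p under 0.05 were TUBB, STMN1 and RRM2, 3 of 16. NR3C1, the glucocorticoid receptor, averaged 10.92 in relapsed and 11.01 in naïve samples (difference -0.09, interval -0.49 to 0.31). ASNS, the asparagine synthetase whose product L-asparaginase depletes, averaged 9.56 and 9.29 (difference 0.27, interval -0.72 to 1.25), with all 7 relapsed samples inside the naïve range of 7.53 to 11.75.

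Detoxifying enzymes were near the middle of the ranking, with a median of 0.05 over 34 genes (60.0% percentile) and 1 gene higher at an unadjusted p under 0.05. That gene was NQO1, a quinone reductase induced by oxidative stress, between 6.57 and 7.62 in relapsed and between 5.66 and 8.24 in naïve samples (difference 0.60, interval 0.06 to 1.14). CYP1B1 and GPX3, a cytochrome P450 and a secreted peroxidase, had differences of 0.58 and 0.64. ALDH1A1, which oxidises an active form of cyclophosphamide, varied more than the interval could resolve, averaging 10.27 in relapsed and 9.57 in naïve samples (difference 0.70, interval -1.06 to 2.47). MGMT, which repairs alkylated guanine, averaged 6.92 and 7.25 (difference -0.34, interval -0.83 to 0.16).

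The list of the BCL2 family and caspases had a median of -0.06 (29 genes, 21 negative, 35.4% percentile) with 0 members at an unadjusted p under 0.05. MCL1, an anti-apoptotic protein, averaged 13.01 in relapsed and 13.02 in naïve samples, and its interval of -0.21 to 0.17 was among the narrower ones. BCL2 averaged 9.20 and 9.41 (interval -0.85 to 0.44), with 10.91 in sample 18 and 8.26 in sample 3. BCL2L11, the pro-apoptotic BIM, had a difference of -0.19 (interval -0.54 to 0.16). It was read from a dim probeset, averaging 5.16 in relapsed and 5.35 in naïve samples, not far above the tag probesets. Samples 3, 12 and 13 were only slightly below the naïve minimum of 4.94, at 4.93, 4.87 and 4.80. CASP9, the initiator caspase of the mitochondrial pathway, had a difference of 0.17. CDKN1A, the cell cycle inhibitor p21, averaged 10.86 in relapsed and 10.53 in naïve samples (difference 0.34, interval -0.35 to 1.02). Glucocorticoid response genes had a median of -0.04 (24 genes, 47.2% percentile), in which SGK1 had a difference of 0.33 and ZBTB16 0.49, with 0 members at an unadjusted p under 0.05.

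**Figure D4:**
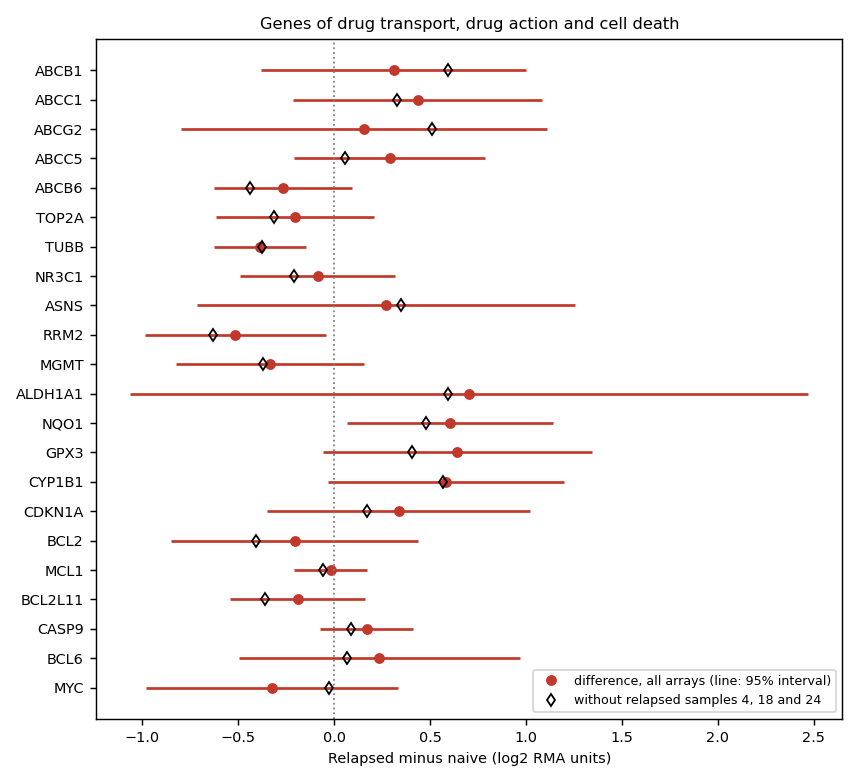
Difference between relapsed and naïve DLBCL (horizontal axis, log2 RMA units) for genes of drug transport, drug action and cell death, with its 95% interval (line) and the difference without relapsed samples 4, 18 and 24 (diamond). The intervals of TUBB, RRM2 and NQO1 leave out 0, and none of the genes passed the adjusted test.

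Genes of the B-cell lineage had a positive median with all samples, and NF-kB targets stood in the middle of the ranking. The B-cell list had a median of 0.10 (20 genes, 12 positive, 70.3% percentile) with all samples, 0.23 (76.0% percentile) without samples 4, 18 and 24 and 0.21 without sample 18 alone. Leaving out naïve sample 5, which was low in this list, together with relapsed sample 18 gave 0.07. The sign of this median changed in 4 alternatives. It was -0.01 with the array day as a block and -0.05 in the same 18 arrays without the block. With sex as a covariate it was -0.0055, and within array day 1 it was -0.09. In the B-cell list, CD37, a tetraspanin of mature B cells, had a difference of 0.23 (interval 0.04 to 0.41). MS4A1 averaged 13.27 in relapsed and 12.82 in naïve samples (difference 0.45, interval -0.47 to 1.37), where the naïve mean includes the low sample 5. PAX5, a B-cell transcription factor read here from a dim probeset, averaged 6.06 and 6.07 (interval -0.16 to 0.14), and BCL6, the repressor of germinal centre cells, 10.87 and 10.64 (interval -0.50 to 0.97). NF-kB target genes, from the study's own list, had a median of -0.02 (99 genes, 51.8% percentile), with 1 higher (EGR1) and 1 lower (REL) at an unadjusted p under 0.05. REL, the NF-kB subunit c-Rel, lay between 6.99 and 7.77 in relapsed and between 6.93 and 8.79 in naïve samples, all 7 below the naïve median of 8.00 (difference -0.48, interval -0.87 to -0.09, adjusted p = 0.99). CXCL13, the chemokine that draws B cells to follicles, and PTGS2, the inducible cyclooxygenase, had differences of 0.79 and 0.94, with intervals that included 0.

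MHC class II genes were all on the positive side, with small differences. All 15 were positive, 0 passed an unadjusted p of 0.05, and the median was 0.20 at the 85.3% percentile with all samples and 0.20 at the 84.9% percentile without samples 4, 18 and 24. The median was 0.07 with sex as a covariate and 0.13 without naïve sample 5 and relapsed sample 18. CD74, the invariant chain, averaged 0.11 higher in relapsed samples (interval -0.04 to 0.27) and DLA-DQB1 0.31 higher (interval -0.18 to 0.80). The list's mean level was 12.39 ± 0.23 in relapsed and 12.21 ± 0.39 in naïve samples (SD, n = 7 and 16).

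Immediate early genes were higher in most relapsed samples, and highest in sample 18. EGR1, a transcription factor induced within minutes by growth signals, was 9.59, 9.39, 10.33, 10.39, 8.98, 12.63 and 8.67 in relapsed samples 3, 4, 9, 12, 13, 18 and 24, against 7.82 to 10.56 with a median of 8.55 in naïve samples. All 7 were above the naïve median but only sample 18 was above the naïve maximum (difference 1.26, interval 0.38 to 2.15, adjusted p = 0.99). FOS had a difference of 1.496, CCN1 1.004 and KLF4 0.89, each highest in sample 18. The list had a median of 0.22 (27 genes, 82.0% percentile) with 5 higher at an unadjusted p under 0.05. Without samples 4, 18 and 24 the median was 0.08 with 2 higher, and without sample 18 alone 0.04. The RNA integrity number of sample 18, 9.1, was the lowest of the relapsed samples, and with that number as a covariate the list's median was 0.09. Its part in the difference was not tested further.

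Lists of other immune cells stood nearer the middle of the ranking with all samples and no covariate. The T-cell list had a median of 0.06 (31 genes). CD3E, a chain of the T-cell receptor complex, averaged 10.22 in relapsed and 10.02 in naïve samples (interval -0.78 to 1.19) and 12.54 in healthy nodes, and CD8A averaged 5.67 and 5.84 (interval -0.67 to 0.31). FOXP3, the factor of regulatory T cells, was the 1 member lower at an unadjusted p under 0.05 (difference -0.37, interval -0.68 to -0.05), while CD40LG, the helper ligand of T cells, had 0.53. Macrophage genes had a median of 0.08 (32 genes), genes of cytotoxic and natural killer cells -0.18 (18 genes), and endothelial genes 0.18 (25 genes, 83.8% percentile) with TIE1 at 0.45 and VWF at 0.39. The endothelial median was 0.05 without sample 18, 0.09 without sample 3, 0.12 without sample 4, 0.07 without samples 4, 18 and 24 and -0.07 within array day 2. That of cytotoxic and natural killer cells was -0.07 without sample 12 and -0.09 without sample 4, and 0.06 with the array day as a block. The macrophage median was -0.0023 without sample 18 and 0.52 within array day 1. The T-cell median was -0.0051 without sample 12, 0.36 within array day 1 and -0.24 within array day 2. With sex as a covariate the medians were 0.37 for macrophages, 0.24 for T cells, 0.03 for cytotoxic and natural killer cells and 0.27 for endothelial genes. The list of neutrophils and calgranulins had a median of 0.05 (14 genes, 9 positive and 5 negative, 67.3% percentile). Its median was 0.36 within array day 1 and -0.21 within array day 2. The calgranulins S100A8 and S100A9 had wide differences, 1.24 (interval -0.26 to 2.75) and 1.02 (interval -0.38 to 2.43), with all 7 relapsed samples above the naïve median. The antimicrobial peptide CAMP had a difference of 1.05 (interval 0.06 to 2.04), while the neutrophil receptor gene CSF3R had 0.0059. Interferon-stimulated genes had a median of 0.08 (39 genes, 64.9% percentile) with 0 members at an unadjusted p under 0.05. The interferon median was 0.30 at the 77.7% percentile without samples 4, 18 and 24, and leaving out 1 relapsed sample moved it between -0.0019 (without sample 3) and 0.22 (without sample 24). The mean level of the list ran from 9.14 to 10.61 in relapsed and from 7.92 to 10.68 in naïve samples.

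Several housekeeping lists leaned negative, each with a small median. Proteasome subunits had a median of -0.08 (34 genes, 30 negative, 20.7% percentile), splicing factors -0.07 (48 genes, 40 negative, 22.7% percentile), the mitochondrial ribosome -0.07 (70 genes, 61 negative, 29.4% percentile) and the respiratory chain -0.05 (54 genes, 47 negative, 32.1% percentile). Without relapsed sample 18 alone the medians were -0.03 for the proteasome, -0.04 for splicing factors, -0.0067 for the mitochondrial ribosome and 0.00063 for the respiratory chain, and without sample 9 alone the respiratory chain had -0.0074. Cholesterol synthesis genes were negative in 18 of 18, with a median of -0.11 at the 26.4% percentile and -0.26 at the 8.43% percentile without samples 4, 18 and 24. INSIG1, the sterol sensor that holds SREBP in place, had a difference of -0.45 (interval -1.03 to 0.13), HMGCS1 -0.35 and SC5D -0.30. In SC5D, a late enzyme of the pathway, all 7 relapsed samples were at 8.35 or below, under the naïve median of 8.37. LDHA, lactate dehydrogenase, had a difference of -0.18 (interval -0.33 to -0.02).

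The dog sampled in both states was the closest pair of arrays. Relapsed sample 12 and naïve sample 11 correlated at 0.991 over all probesets, the highest of the 253 pairs of DLBCL arrays, against 0.942 to 0.986 in the 111 other pairs of a relapsed with a naïve array. Naïve samples 6 and 11, from different dogs, came close at 0.989. Between samples 12 and 11, 342 of 15115 genes differed by over 1 log2 unit, 240 higher and 102 lower at relapse, where the 111 other pairs had between 480 and 2420 such genes. These are 2 biopsies with no replicate, and nothing was tested on them. Of all 15115 genes, 7807 were higher at relapse. In this dog the mitosis list was lower at relapse by a median of 0.78, with 1 of 39 genes higher, and CENPA was 8.14 at relapse and 9.24 before. DNA replication genes had a median of -0.43 and stroma genes of 0.87, with 38 of 40 higher. Interferon-stimulated genes had a median of -0.78 with 5 of 39 higher, opposite in sign to the 0.21 of the other dogs. In the remaining 6 relapsed and 15 naïve arrays the medians were -0.27 for mitosis, -0.18 for DNA replication and 0.44 for stroma. Over the 15115 genes, the difference in the dog and the difference in the other arrays correlated at 0.268, with 55.9% of genes of the same sign. Genes are not independent replicates, so that this is a description. FAM169A, whose role is not well described and which was named after its value was seen, had the lowest difference of all genes (-1.76). It was 6.67 at relapse and 8.66 before in this dog and between 3.74 and 4.37 in the other relapsed dogs, against a naïve median of 6.18.

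**Figure D5:**
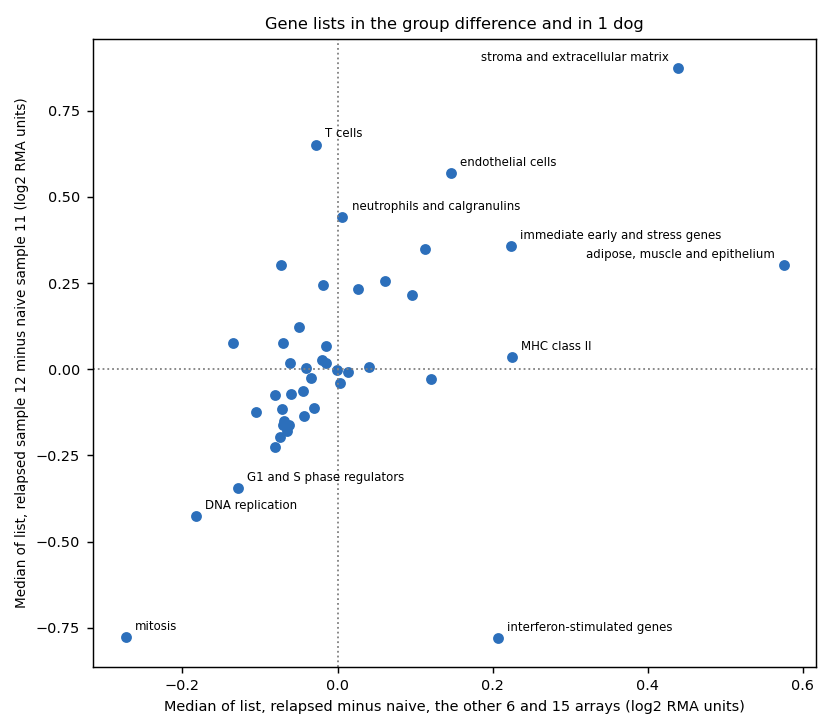
Median log2 difference of the gene lists shown in the dog sampled in both states (relapsed sample 12 minus naïve sample 11, vertical axis) against that of the other 6 relapsed and 15 naïve arrays (horizontal axis), in log2 RMA units. Mitosis and DNA replication are low on both axes and stroma high on both, while interferon-stimulated genes differ in sign.

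Within array days the main list shifts differed in size. Within array day 1 (relapsed samples 3 and 9 against 6 naïve samples) the median was -0.41 for mitosis, -0.30 for DNA replication and 0.80 for stroma. Within array day 2 (relapsed samples 4, 18 and 24 against 4 naïve samples) it was -0.06 for mitosis, -0.12 for DNA replication and 0.24 for stroma. With the day as a block over the 18 arrays with a known day, the medians were -0.23, -0.21 and 0.40. The day, the drugs given and the interval since treatment differ together between these few samples and cannot be told apart. MFAP5, a microfibril protein named after its value was seen, had the third largest difference of all genes. It lay between 7.07 and 11.19 in relapsed and between 3.66 and 10.62 in naïve samples (difference 2.30, and 1.57 without samples 4, 18 and 24).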

How the data were processed

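The series holds 33 arrays of the Affymetrix Canine Genome 2.0 design, 1 per lymph node sample. The authors ran RMA (Expression Console) and deposited log2 values, 1 per probeset and array, from 2.20 to 15.49. RMA gives the probe intensities of all arrays 1 distribution before they are summarised, which hides shifts in total RNA, and it shrinks differences of dim probesets. The deposited probeset values keep small differences, with medians of 6.86 to 6.93 in the 23 arrays. Versions of Expression Console and RMA are not stated in the sources read. All columns were mapped (0 unused).

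Groups came from the labels. Array days came from dates in array file names in a list of the study that was read from page images and may hold reading errors, for 18 of 23 tumours (sample 5 stands there repeatedly, with different days, and was given none). The study states 2 extraction batches, not assigned to samples here. Probesets were compared by limma 3.58.1 (lmFit and eBayes, R 4.3.3), relapsed minus naïve, with Benjamini-Hochberg adjustment over 43035 probesets, and the procedure was tested on simulated data. P-values treat 23 arrays as independent, and 1 dog gave 2. By the platform annotation 29264 probesets name 1 gene symbol, 439 name several and 13332 none. For genes with several probesets, the one of highest mean level was used (15115 genes). Members and 45 gene lists, the rule for named genes (the 12 highest and 12 lowest moderated t, up to 4 members of smallest p in a described list, and a fixed set of drug, lineage and cell death genes) and the alternatives were chosen with earlier results of these data known. Another 3 lists (muscle, skin, adipose) and 4 genes were added after values were seen. Some items are not reported here. The NF-kB targets are the study's list. Array scores, RNA integrity and age were compared by exact permutation (245157 splits, two-sided) with scipy 1.17.1 and numpy 2.4.6 (Python 3.11.15), tables were joined with pandas 2.3.3 and plots drawn with matplotlib 3.10.9.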

Additional observations from a re-analysis of the deposited data

Results flagged for a closer look

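Among the 7 relapsed samples, 171 levels of named genes and lists, RNA integrity and age were examined for a sample far from the other 6, measured as its gap to the nearest sample over the whole range of the group. For independent levels chosen without regard to their values, chance alone would mark about 1 in 20. Here 16 were marked, but many levels vary together and some were named after their values were seen. The number marked is therefore no test. Naïve samples are too many for this check.

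Sample 18 stood high for ADIPOQ (gap over range 0.702), CIDEA (0.614) and the adipose list (0.711), and for ABCC5 (0.738), the glucocorticoid response list (0.628) and the immediate early list (0.652). It stood low for MCM4 (0.688) and CDK2 (0.644). Sample 4 stood high for PERP (0.574) and SFN (0.576) and low for the MHC class II list (0.630). Sample 24 stood high for ENO3 (0.605) and ART1 (0.743). Sample 12 stood high for PIK3IP1 (0.582) and FAM169A (0.784) and low for MCL1 (0.650). In all, 8 of the 16 were in sample 18, 3 in sample 4, 2 in sample 24 and 3 in sample 12.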

How the results depend on the processing

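After adjustment, 0 probesets were higher and 0 lower in each of 25 alternatives, with the smallest adjusted p between 0.12 (all 33 arrays in the fit) and 1. At an unadjusted p under 0.05 the fits leaving out 1 relapsed sample gave between 633 (without sample 18) and 1065 higher and between 745 (without sample 18) and 1358 lower, against 945 and 1112. Of 121 named genes, 88 kept their sign in every alternative, among them all 24 of the highest and lowest moderated t, and 0 passed the adjusted test in any. The 24 genes were picked by their t in the main fit, and the alternatives reuse arrays of that fit. Their kept signs therefore follow largely from the choice. Of 48 list medians, 14 kept their sign in every alternative, among them mitosis, DNA replication, stroma, MHC class II and cholesterol synthesis. A list median moved by over 1 SD of its level between samples in 5 cases: adipose, muscle and epithelium to -0.0487 without samples 4, 18 and 24, cholesterol synthesis to -0.62, the 6 sex-linked genes to 0.14 and skeletal muscle to -0.00348 within array day 1, and sex-linked genes to -0.34 within array day 2. These settings differ in which samples they hold. The cause was not tested further. Leaving out each relapsed sample in turn moved the mitosis median between -0.52 and -0.19, DNA replication between -0.27 and -0.11, and stroma between 0.32 and 0.53. The dog as a random block could not be fitted (duplicateCorrelation gave no estimate), and leaving out both of its arrays gave 0 probesets in either direction. No paired analysis was possible because only 1 dog gave a sample to both groups and the sample numbers are not shared between them. The array number and the weak signal of dim probesets limit what can be seen.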
